A study of Mus musculus with 1931 samples.

Results

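The cells described here were Epi-like cells of mouse Rosette-to-Lumen (RtL) embryoids in which mRNA of the transcription factor *Otx2* was found and mRNA of *Tfap2c* was not. They were chosen by measured values: wells of plates 3, 4 and 5 in columns 1 to 8 with at least 2500 genes above 0 TPM (an abundance normalized for transcript length and library size), *Otx2* above 0 TPM and *Tfap2c* at 0 TPM. The rule was met by 34, 51 and 38 wells of plates 3, 4 and 5, out of 1931 wells in the whole series, and they are called *Otx2*+ cells. The other Epi-like wells with enough genes fell into 3 groups. Both genes were at 0 in 22, 22 and 23 wells of these plates, called double-0 cells. *Tfap2c* was above 0 and *Otx2* at 0 in 24, 22 and 33 wells. These 67 and 79 wells together are called *Otx2*-0 cells and are the comparison of the rule. Both genes were above 0 in 21, 12 and 12 wells. Because *Otx2* and *Tfap2c* picked the cells, their own levels are no finding.

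RtL-embryoids were built from 3 lines of mouse embryonic stem cells (ESCs) grown together. Kermit ESCs, which carry an *Oct3/4*-GFP transgene, gave the Epi-like compartment. The 5-Factor ESCs carried doxycycline-inducible *Cdx2*, *Tfap2c*, *Eomes*, *Gata3* and *Ets2*, and mCherry-marked iGATA6 ESCs carried inducible *Gata6*; all cells, the Epi-like ones included, were exposed to 2 µg/ml doxycycline, which was then withdrawn. Handpicked embryoids were pooled, stained for CD40 and sorted by fluorescence into multi-well plates, so that every well held a cell of the same pool. Thus each group below was 1 sample, the plates were technical splits of it, and no p-value or replicate error can be given. The spread shown is that between plates and between cells, and intervals are exact Clopper-Pearson 95% intervals that cover counting error only. ESCs kept in 2i/LIF on plate 7, with the same minimum of genes, served as a reference.

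OTX2 is a homeobox factor that accompanies the exit from naive pluripotency and helps to redirect OCT4 to the enhancers of the formative and primed epiblast. As mouse epiblast cells leave the naive state, *Nanog*, *Klf4* and *Esrrb* are turned down, the de novo DNA methyltransferases *Dnmt3a* and *Dnmt3b* are turned up, and *Fgf5* and *Lef1* follow. *Tfap2c* is known in primordial germ cells, for whose specification OTX2 acts as a brake.

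The *Otx2*+ cells made up 39.2% of the Epi-like wells (interval 33.7 to 44.8%). Their share was 33.7% on plate 3 (24.6 to 43.8%), 47.7% on plate 4 (37.9 to 57.5%) and 35.8% on plate 5 (26.8 to 45.7%). The intervals of every pair of plates overlapped. Across quartiles of expressed genes within each plate, the share was 31.2, 41.8, 35.5 and 48.1% from the lowest to the highest quartile, so it was highest among the wells with the most genes. By well column the share ran from 36.4 to 47.6% in columns 1 to 7 and was 18.6% in column 8 (8 of 43, interval 8.39 to 33.4%). The reason for the low share in column 8 was not tested.

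*Otx2* stood at a median of 79.99 TPM in the *Otx2*+ cells, with quartiles at 41.5 and 130 TPM and a highest value of 584.8 TPM. The 3 cells just inside the rule had 4.44, 5.34 and 7.55 TPM, and every cell outside it was at 0, so few cells lay near the threshold. On the side of expressed genes, the *Otx2*+ cell with the fewest had 2712, and the 4 wells with *Otx2* and no *Tfap2c* that fell short had at most 1862. A value of 0 in a single well can also be a transcript that was missed, and the *Otx2*-0 cells can include such wells. *Otx2* was above 0 in 1 well of columns 9 to 16 (0.317%) and in 19 wells of columns 17 to 24 (5.38%), the columns rich in visceral endoderm (VE)-like and extraembryonic ectoderm (ExE)-like markers, respectively. In the 2i/LIF ESCs it was above 0 in 88.7% of the wells (interval 82.3 to 93.4%), at a median of 9094 expressed genes against 4889 in the *Otx2*+ cells. Presence of *Otx2* alone thus did not set the *Otx2*+ cells apart from naive ESCs, and levels are given beside shares. They are given as TP10k, the TPM value rescaled to a sum of 10000 in each cell.

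The labels do not say which sort gate filled which columns, so the cells were checked by their markers. All *Otx2*+ cells had *Pou5f1* and *Utf1*, 99.2% had *Tdgf1*, 91.1% had *Gdf3*, 90.2% had *Nanog* and 87.8% had *Sox2*. Of 10 VE markers, *Apoe* was found in all of them, while *Ttr* and *Gata6* were at 0 in every *Otx2*+ cell and each of the other VE markers was above 0 in at most 4 cells. The summed VE level ran from 2.52 to 120 TP10k in *Otx2*+ cells and from 0 to 116.3 TP10k in *Otx2*-0 cells, nearly all of it *Apoe*. Of 10 ExE markers, *Hand1* was at 0 in all *Otx2*+ cells, *Cdx2* was above 0 in 1 and *Gata3* in 2. The other 7 were found in 7.32% (*Elf5*) to 24.4% (*Ets2*) of *Otx2*+ cells and in 5.48 to 22.6% of *Otx2*-0 cells, among them the keratin genes *Krt8*, in 21.95 against 13.01%, and *Krt18*, in 23.6 against 17.1%. The summed ExE level ran from 0 to 4.13 TP10k against 0 to 24.9 TP10k in *Otx2*-0 cells. No *Otx2*+ cell lacked *Pou5f1* or held 3 or more VE or ExE markers above 1 TP10k, and 3 *Otx2*-0 cells did. The number of expressed genes was close but not equal: a median of 5643, 4610 and 4316 in *Otx2*+ cells of plates 3, 4 and 5, against 5715, 4078 and 4151 in *Otx2*-0 cells.

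Since *Tfap2c* was at 0 in every *Otx2*+ cell by the rule but above 0 in 79 of the *Otx2*-0 cells, a difference between these groups mixes the presence of *Otx2* with the absence of *Tfap2c*. Differences are therefore also given against the 67 double-0 cells alone.

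Next, gene expression was compared between *Otx2*+ and *Otx2*-0 cells at equal numbers of expressed genes. The difference is that of mean ln(TP10k + 1) within quartiles of expressed genes on each plate, and a gene counted as past the size rule when this difference was at least 0.2 and had the same sign on the 3 plates. Only genes present in 25% or more of 1 of the groups were compared, which left 7472. A gene that passed this filter through 1 group alone was found more often there, so its direction was nearly fixed in advance. *Otx2*+ cells were higher in 72 genes (0.964% of the genes compared) and lower in 68 (0.91%), together 1.87%, and the median difference over all genes was 0.0044. Against the double-0 cells, 83 of 7543 genes were higher (1.1%) and 36 were lower (0.477%), together 1.58%. Of these, 27 higher and 10 lower genes were past the rule in both comparisons. Both use the same *Otx2*+ cells, and the double-0 cells are part of the *Otx2*-0 cells. This overlap is therefore partly built in and is no independent repeat. With 1 plate left out, the rule asks for equal signs on only 2 plates, so more genes can pass it. The higher genes were then 1.66% of those compared without plate 4 and 1.72% without plate 5, and the lower genes were 1.74% without plate 3. How far such counts depend on the plates themselves was not tested. These counts describe the size of differences among cells of 1 pool and carry no error rate. In simulated data the rule found lowered genes less often than raised ones, so the higher and lower counts are not directly comparable.

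The DNA methyltransferase genes led the difference among the genes named as markers of this state. *Dnmt3a* (chr12:3806007-3914443, + strand, GRCm38), which lays down new DNA methylation, averaged 3.95, 5.46 and 5.21 TP10k in *Otx2*+ cells of plates 3, 4 and 5, and 2.24, 2.44 and 2.39 TP10k in *Otx2*-0 cells. Its mean was higher on each plate, although single cells overlapped widely: the quartiles were 2.10 and 6.76 TP10k in *Otx2*+ cells and 0.0935 and 3.17 TP10k in *Otx2*-0 cells. The matched difference was 0.65 on the ln scale, and 0.48, 0.74 and 0.72 by plate. *Dnmt3a* was found in 97.6% of *Otx2*+ cells (interval 93.04 to 99.5%) and in 76.7% of *Otx2*-0 cells (69.01 to 83.3%). Against the double-0 cells, the difference was 0.46, and on plate 3 it was 0.17.

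*Dnmt3b* (chr2:153649450-153687730, + strand), its partner enzyme in the epiblast, averaged 2.17, 2.02 and 1.58 TP10k in *Otx2*+ cells against 0.582, 0.666 and 0.593 TP10k in *Otx2*-0 cells of plates 3, 4 and 5. Thus the *Otx2*+ mean was above the *Otx2*-0 mean on each plate, with a matched difference of 0.38 (0.43, 0.46 and 0.25 by plate) and of 0.25 against the double-0 cells. The share of cells with *Dnmt3b* differed less than its level, with 79.7% against 65.1%, or 8.95 percentage points at matched gene numbers. When all wells with *Otx2* were compared with all wells without it inside strata that also separated wells with and without *Tfap2c*, an alternative chosen after the data were seen, the difference of *Dnmt3a* was 0.29 and that of *Dnmt3b* 0.15.

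*Fgf5* and *Lef1* were scarce. *Fgf5* (chr5:98254184-98277030, + strand), an FGF ligand of the primed epiblast, averaged 0.385, 0.389 and 0.232 TP10k in *Otx2*+ cells of plates 3, 4 and 5, against 0.0817, 0.0507 and 0.0259 TP10k in *Otx2*-0 cells. It was found in 29.3% of *Otx2*+ cells (interval 21.4 to 38.1%) and in 6.85% of *Otx2*-0 cells (3.33 to 12.2%), a gap of 20.7 percentage points at matched gene numbers. The share was 24.2, 18.5 and 19.9 points higher on plates 3, 4 and 5. Outside the Epi-like columns, *Fgf5* was found in 11.1% of the wells of columns 9 to 16 (median 5348 genes) and in 4.82% of those of columns 17 to 24 (median 5396 genes), so the share in *Otx2*-0 cells was within the range of these wells and that in *Otx2*+ cells was above it. *Lef1* (chr3:131110471-131224356, + strand), a nuclear mediator of Wnt signalling, was found in 30.1% against 9.59%, and in 3.49 and 7.65% of the wells of those columns. Its matched gap was 16.8 points, with 17.4, 7.85 and 25.4 points by plate. Most cells were at 0 for both genes. The matched differences of their levels, 0.15 for *Fgf5* and 0.084 for *Lef1*, were below the size rule. So were those of 0.12 and 0.057 against the double-0 cells. In that comparison the gaps in share were 12.8 points for *Fgf5* and 10.99 points for *Lef1*.

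**Figure D1:**
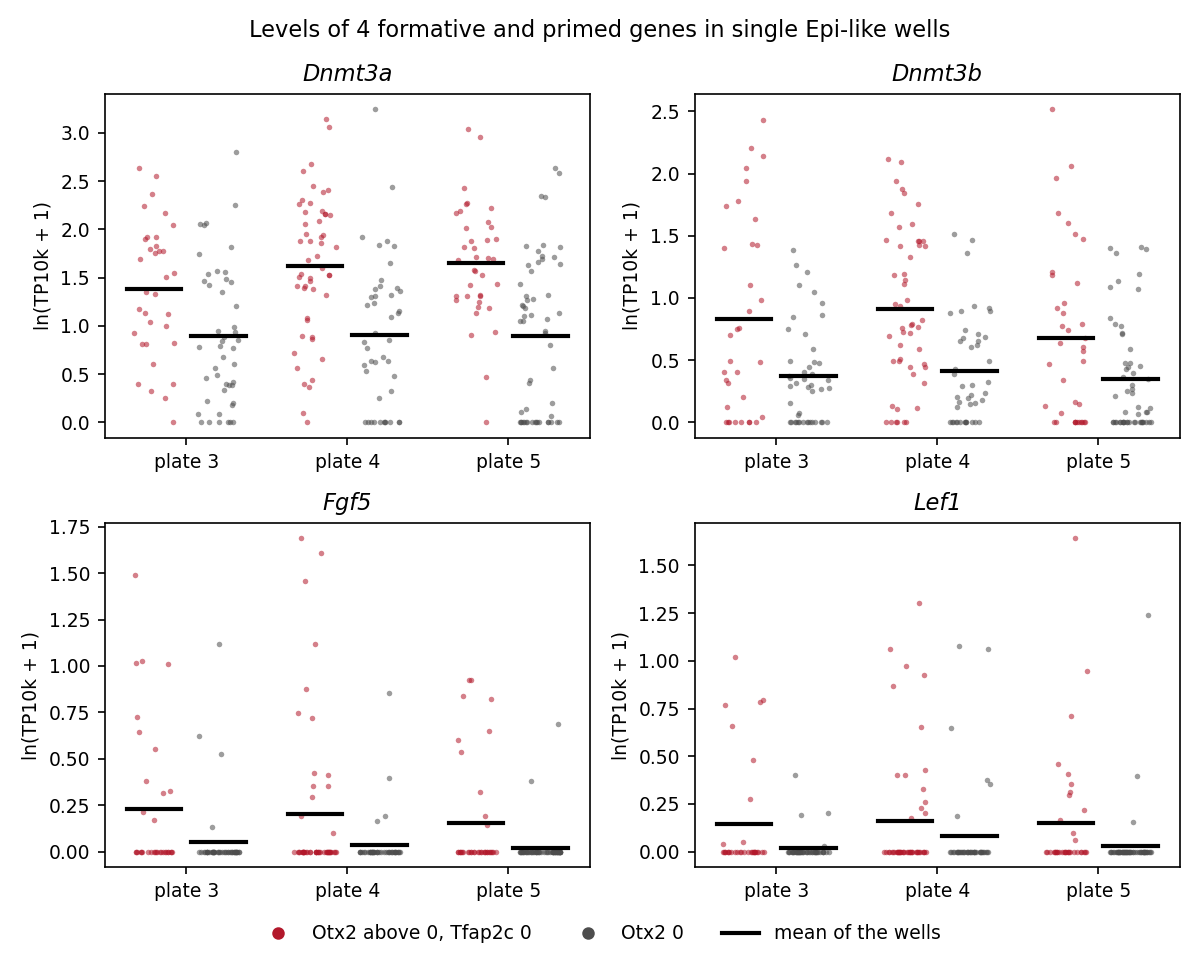
Levels of *Dnmt3a*, *Dnmt3b*, *Fgf5* and *Lef1* as ln(TP10k + 1) on the vertical axis for plates 3, 4 and 5; each point is 1 well, red for *Otx2*+ cells and grey for *Otx2*-0 cells, and black bars are means of the wells. The red mean is above the grey mean in each gene and plate, while the points overlap and most cells of both groups sit at 0 for *Fgf5* and *Lef1*.

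Few cells held all of these genes together. All 4 of *Dnmt3a*, *Dnmt3b*, *Fgf5* and *Lef1* were above 0 in 15 *Otx2*+ cells (12.2%, interval 6.99 to 19.3%) and in 1 *Otx2*-0 cell (0.685%, 0.0173 to 3.76%), which was a double-0 cell. Another 37 *Otx2*+ cells (30.1%) held 3 of them, against 13 *Otx2*-0 cells (8.90%). At matched gene numbers, the shares of cells with 3 and with 4 of the genes were 17.3 and 10.3 points higher in *Otx2*+ cells. Most *Otx2*+ cells thus held 1 or 2 of the genes, and 1 cell held none. Among the 45 cells with both *Otx2* and *Tfap2c*, none held all 4 and 5 held 3; their mean *Dnmt3a* was 1.75 TP10k, near the 1.73 TP10k of the cells with *Tfap2c* alone. Of the 2i/LIF ESCs, 3 held all 4 genes (2.11%) and 51 held 3 of them (35.9%, interval 28.04 to 44.4%), a share near that of the *Otx2*+ cells, at a median of 9094 expressed genes per cell, with low means of 0.00654 TP10k for *Fgf5* and 0.00857 TP10k for *Lef1*.

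**Figure D2:**
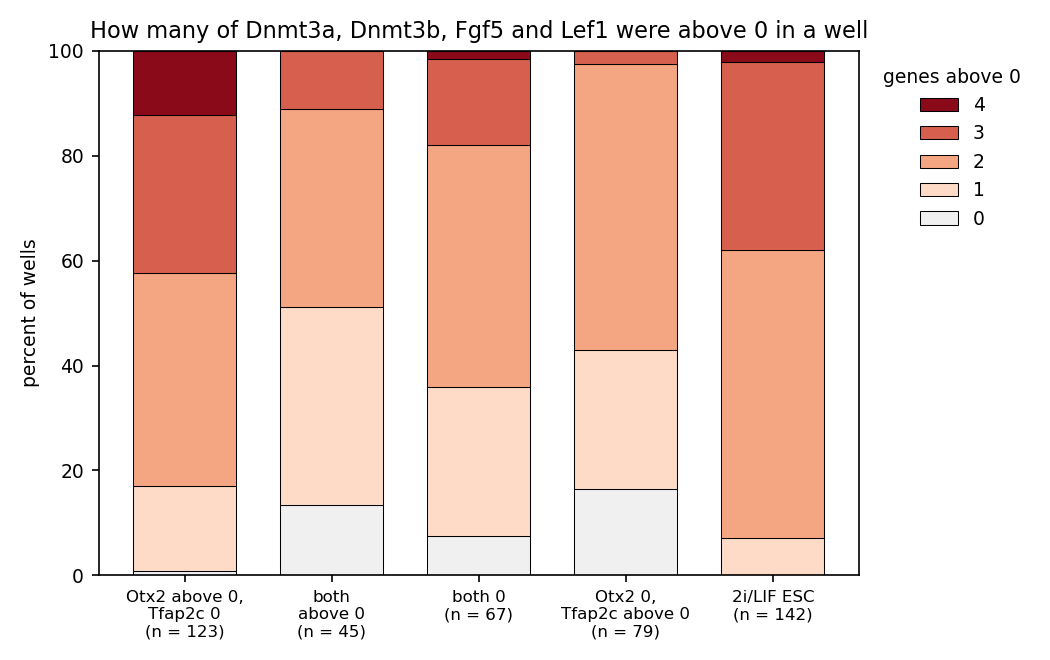
Percent of wells (vertical axis) in which 0 to 4 of *Dnmt3a*, *Dnmt3b*, *Fgf5* and *Lef1* were above 0 TPM, for 4 groups of Epi-like wells and the 2i/LIF ESCs, with the number of wells under each bar. All 4 genes were found in 12.2% of the *Otx2*+ cells and in none of the 45 wells that held both *Otx2* and *Tfap2c*.

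The wider formative and primed list held 26 genes, of which *Pou3f1* was not in the table and *Foxd3*, *Sox3* and *Cdh2* were below the filter. Of the 22 genes compared, 20 were higher and 2 lower in *Otx2*+ cells, and 14 of the 20 were higher on every plate. Some of them, with *Fgf5*, *Lef1*, *Car14* and *Fgf15* among them, passed the filter only through the *Otx2*+ cells, which nearly fixed their direction. The count also holds the marker genes *Dnmt3a*, *Dnmt3b*, *Fgf5* and *Lef1*, so it is no independent support for a primed state. Of all genes compared, 53.4% were higher and 18.04% were higher on every plate. The list's median difference was 0.056 (0.068 against double-0 cells) beside 0.0044 over all genes. Past the size rule were *Dnmt3a*, *Dnmt3b* and *Fgf15*, in both comparisons, and none was past it in the lower direction. *Fgf15*, an FGF ligand, averaged 1.12, 1.23 and 1.0003 TP10k in *Otx2*+ cells of plates 3, 4 and 5, against 0.104, 0.352 and 0.325 TP10k in *Otx2*-0 cells. It was found in 56.1% of the *Otx2*+ cells and 14.4% of the *Otx2*-0 cells, a matched gap of 36.4 points, and in 0.952 and 1.13% of the wells of columns 9 to 16 and 17 to 24.

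*Pim2*, a serine/threonine kinase gene, differed by 0.45 and 0.46 on plates 3 and 4 and by −0.062 on plate 5, so it did not meet the rule, and against double-0 cells by 0.48, 0.45 and −0.17. *Tead2*, a partner of YAP, behaved likewise, with 0.27, 0.21 and −0.029, and 0.24, 0.24 and −0.10 against double-0 cells. *Car14*, a carbonic anhydrase gene, was found in 29.3% of *Otx2*+ and 9.59% of *Otx2*-0 cells with a difference of 0.14, and of 0.13 against double-0 cells. *Nodal*, the TGF-beta family ligand of the early epiblast, differed by 0.050 (0.046, 0.11 and −0.0099 by plate), and by 0.058 against double-0 cells. Of 10 gastrulation genes none passed the filter. *T*, a marker of the primitive streak, was above 0 in 1 *Otx2*+ cell, *Foxa2* in 1 and *Cer1* in none. By the rule that a count of 0 allows 3 cells, not by an exact interval, the share of *Cer1* could reach 2.44%. *Eomes*, also one of the inducible genes of the 5-Factor line, was above 0 in 10 *Otx2*+ cells (8.13%) and 10 *Otx2*-0 cells (6.85%).

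Most genes of the naive list were lower in *Otx2*+ cells, and 5 of them past the rule. Of 18 genes, 14 were compared; 12 were lower and 2 higher in *Otx2*+ cells, and 8 were lower on every plate, beside 46.6% and 14.1% of all genes compared. The median difference was −0.094 (−0.090 over the 13 genes compared with double-0 cells). Over all 18 genes, mean ln(TP10k + 1) was 0.749 in *Otx2*+ cells, 0.882 in *Otx2*-0 cells and 0.998 in cells with both *Otx2* and *Tfap2c*. The lower mean was thus not seen in the cells with both genes, but these 3 means were not matched for plate or expressed genes. The cells with both genes had a median of 5193 expressed genes, against 4889 in *Otx2*+ cells. The summed level of the list had a median of 251.7 TP10k in *Otx2*+ and 249.8 TP10k in *Otx2*-0 cells. A sum is weighted to the most abundant genes and did not follow the mean. In the 2i/LIF ESCs its median was lower, at 174.5 TP10k, although mean ln(TP10k + 1) was higher, at 1.13. The similar sums are therefore not read as equal naive levels. *Nanog*, *Zfp42*, *Dppa3*, *Fbxo15* and *Tcl1* were lower past the size rule. *Dppa3* passed the filter only through the *Otx2*-0 cells, which nearly fixed its direction. *Nanog* (chr6:122707489-122714633, + strand) averaged 3.62, 2.45 and 3.14 TP10k in *Otx2*+ cells of plates 3, 4 and 5 and 4.68, 3.97 and 3.81 TP10k in *Otx2*-0 cells. It was thus lower but still present in 90.2% of the *Otx2*+ cells, with a difference of −0.24 and of −0.27 against the double-0 cells. Without plate 4 the difference was −0.16, under the size rule. *Zfp42*, the gene of the naive marker REX1, averaged 3.55, 2.57 and 4.04 TP10k against 5.15, 4.57 and 5.98 TP10k, with differences of −0.40 and, against double-0 cells, −0.25. *Tcl1*, a co-activator of AKT, differed by −0.30 and −0.24, and by −0.19 without plate 4. In the strata that also separated wells by *Tfap2c*, *Nanog* differed by −0.11, *Tcl1* by −0.095, *Fbxo15* by −0.067 and *Dppa3* by −0.17, all under the rule, and *Zfp42* by −0.20.

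*Dppa3* was the exception. This gene, also called *Stella*, protects maternal methylation in the zygote and marks naive cells and early germ cells. It averaged 0.470 TP10k in *Otx2*+ cells and 2.99 TP10k in *Otx2*-0 cells, a matched difference of −0.56, but was at 0.698 TP10k in double-0 cells, where it was below the filter and the difference was 0.013, and at 4.94 TP10k in cells with *Tfap2c* and no *Otx2*. Its low level in *Otx2*+ cells was therefore not seen against cells that also lacked *Tfap2c*. *Fbxo15* differed by −0.26 in the first comparison and by −0.16 in the second, where it was higher on plate 5 (0.11), and by −0.18 without plate 3. *Esrrb*, an orphan nuclear receptor gene of the naive network, differed by −0.12 and −0.11, with 71.5% of *Otx2*+ and 89.7% of *Otx2*-0 cells holding it. *Klf4* differed by −0.047 and −0.070, *Tfcp2l1* by −0.088 and −0.090, and the share of cells with *Tfcp2l1* was 22.5 points lower at matched gene numbers.

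**Figure D3:**
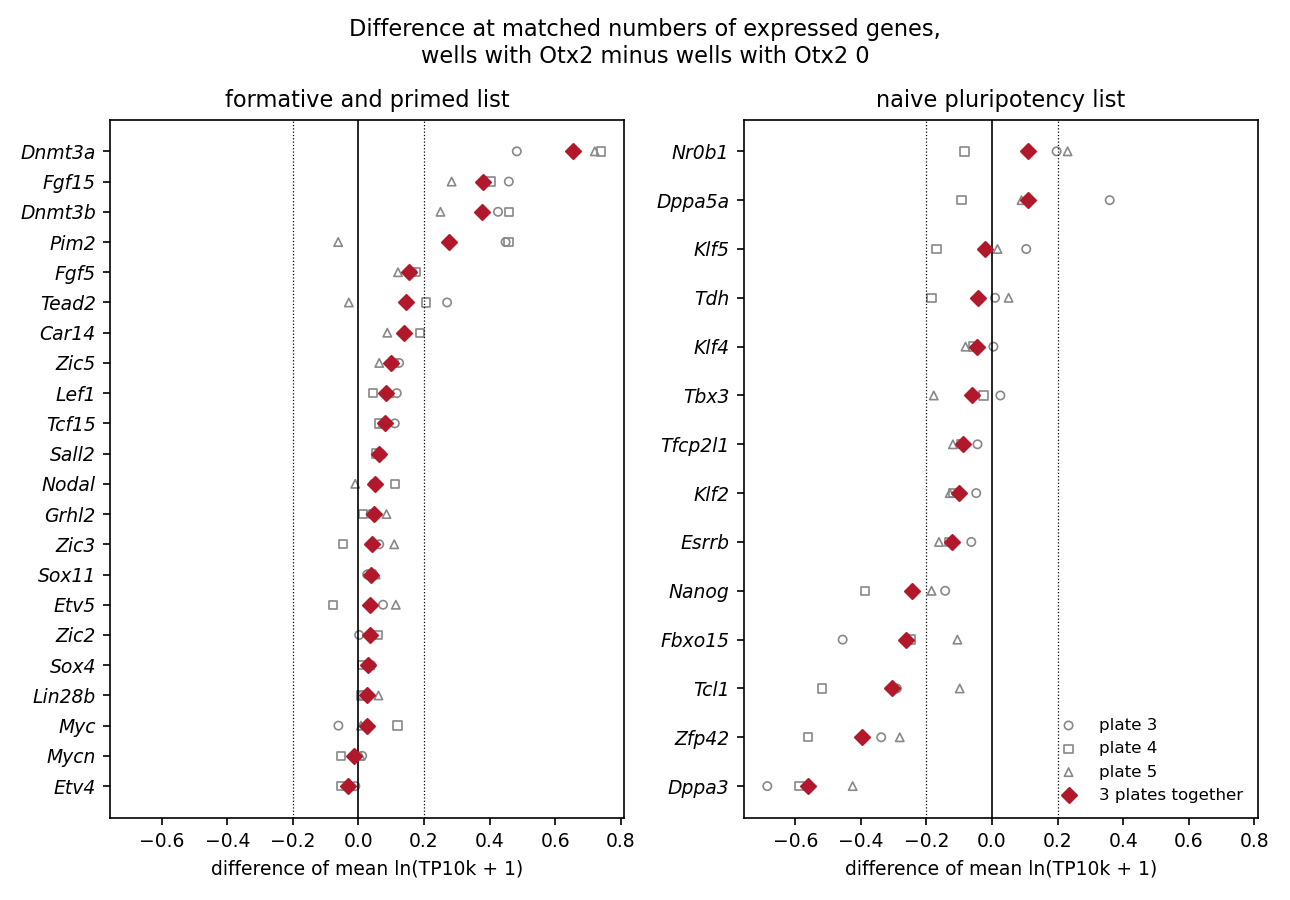
Difference of mean ln(TP10k + 1), *Otx2*+ minus *Otx2*-0 cells at matched numbers of expressed genes (horizontal axis), for the 22 compared genes of the formative and primed list and the 14 of the naive list; red diamonds are the 3 plates together, open symbols the single plates, and dotted lines the size rule of 0.2. *Dnmt3a*, *Fgf15* and *Dnmt3b* lie right of the rule on all plates, *Dppa3* and *Zfp42* left of it on all plates, and most other genes lie between the dotted lines.

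Within the *Otx2*+ cells the lists were set against each other cell by cell. The mean level of the formative and primed list and that of the naive list were related inversely, with a Spearman's rho of −0.68 over all of them after the number of expressed genes was taken out; by plate it was −0.88 (34 cells), −0.67 (51 cells) and −0.27 (38 cells). In the *Otx2*-0 cells it was −0.37 and, by plate, −0.33, −0.41 and −0.38 (46, 44 and 56 cells). The cells share a pool, a plate and a fixed sum of values per cell, so rho is a description. The *Otx2*+ cells had a larger SD on the formative and primed list (mean 0.336, SD 0.138 across cells) than the *Otx2*-0 cells (0.213, SD 0.090). Their mean was higher as well, and relative to the mean the spread was similar in both groups. The *Otx2*+ cells ranged from cells with high naive and low primed levels to the reverse and so did not form a uniform primed group. The label "primed-like" came with *Dnmt3a*, *Dnmt3b*, *Fgf5* and *Lef1* as markers, chosen with earlier results of these data known. Their higher levels are therefore no independent support for it. They describe the group mean, not each cell, and those of *Fgf5* and *Lef1* were under the size rule.

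**Figure D4:**
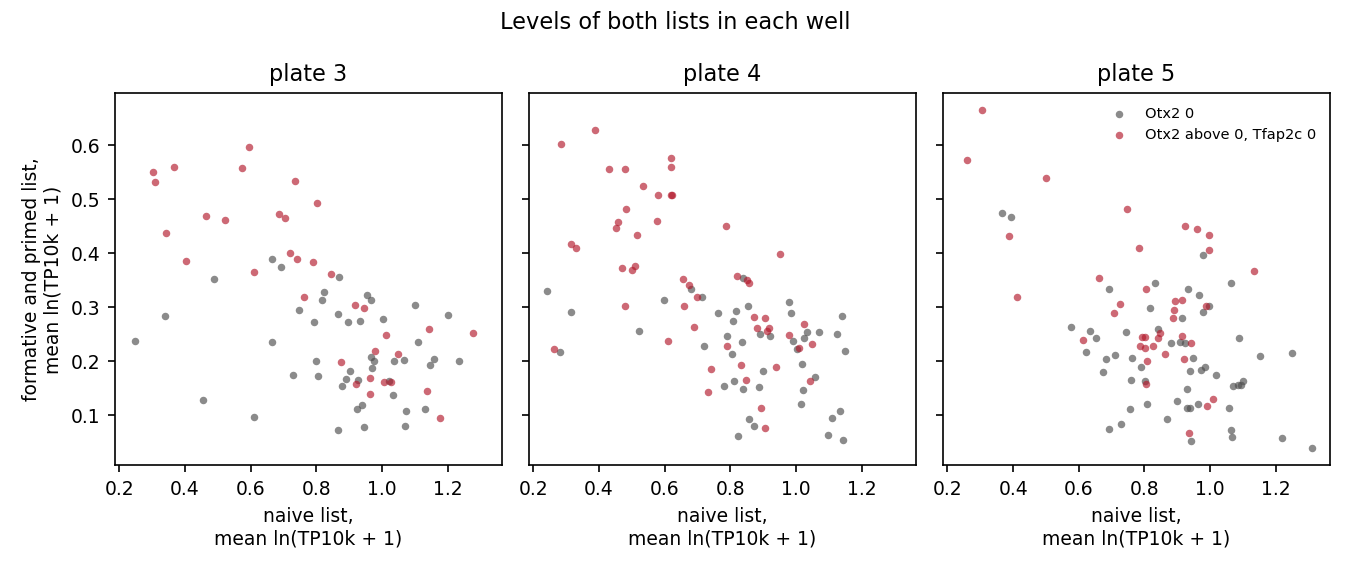
Mean ln(TP10k + 1) of the naive list (horizontal axis) and of the formative and primed list (vertical axis) in each well, by plate; red points are *Otx2*+ cells and grey points *Otx2*-0 cells. Red points run from the lower right to the upper left on plates 3 and 4 (rho −0.88 and −0.67), and on plate 5 they lie mostly among the grey points (rho −0.27).

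Core pluripotency genes were found in most *Otx2*+ cells, as given above. *Utf1*, a chromatin-bound factor of pluripotent cells, averaged 9.78, 10.1 and 7.30 TP10k in *Otx2*+ cells of plates 3, 4 and 5 and 6.33, 7.59 and 6.15 TP10k in *Otx2*-0 cells, with differences of 0.27 and, against double-0 cells, 0.37, and of 0.18 without plate 3. *Tdgf1*, whose product Cripto is a co-receptor for NODAL, differed by 0.37 (0.59, 0.098 and 0.43 by plate), and against double-0 cells by 0.26 with −0.0082 on plate 4. These were the 2 of 10 core genes past the rule. *Pou5f1* differed by 0.084 and *Sox2* by −0.069, and against double-0 cells by 0.013 and −0.00051.

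Signalling lists held few genes past the rule. In the Nodal pathway, *Lefty1*, a secreted inhibitor of NODAL, was higher by 0.25. Against double-0 cells it was not past the rule, with a difference of 0.15, nor with each cell matched to the nearest well (0.12), with a minimum of 4000 genes (0.16) or without plate 3 (0.18). None of 9 compared genes of the FGF and ERK pathway, 7 of the Wnt pathway, 6 of the BMP pathway and 4 of the LIF and STAT3 pathway was past the rule in either direction in the first comparison. The same held for 8 genes of DNA methylation other than *Dnmt3a* and *Dnmt3b*, 6 germ cell genes, 10 genes of chromatin and Polycomb, 15 of the cell cycle and 10 of stress and p53. Of the rosette and lumen list, *Epcam*, an epithelial adhesion molecule, was higher by 0.24 among 12 genes, and of the glycolysis list *Slc2a1*, the glucose transporter GLUT1, by 0.24 among 15. Against double-0 cells *Slc2a1* stayed past the rule (0.22), *Epcam* did not (0.19; also 0.19 without plate 5), *Slc2a3*, a further glucose transporter gene, differed by −0.22 and *Bax*, a pro-apoptotic member of the BCL2 family, differed by 0.23.

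Across all genes, the 12 with the highest difference were *Trh*, *Dnmt3a*, *Mdk*, *Rbpms2*, *Fgf15*, *Dnmt3b*, *Car4*, *Igfbp2*, *Tdgf1*, *Emb*, *Aldh2* and *Enpp2*, from 0.79 to 0.32. *Trh*, the precursor gene of thyrotropin-releasing hormone, averaged 13.1, 7.10 and 6.26 TP10k in *Otx2*+ cells of plates 3, 4 and 5 and 4.16, 4.29 and 3.94 TP10k in *Otx2*-0 cells. It was higher on each plate, by 0.79 together and by 0.46 against double-0 cells, and it was found in 85.4% against 63.7% of the cells and in 1.27 and 0.850% of the wells of columns 9 to 16 and 17 to 24. *Enpp2*, which encodes autotaxin, an enzyme that makes lysophosphatidic acid, was found in 40.7% of *Otx2*+ and 10.96% of *Otx2*-0 cells. Like *Fgf15*, it passed the filter only through the *Otx2*+ cells. *Emb*, a chaperone of lactate transporters, differed by 0.36 and 0.29, with 0.32, 0.39 and 0.37 by plate. *Aldh2*, a mitochondrial aldehyde dehydrogenase, differed by 0.33 and 0.29, and *Car4*, a membrane-bound carbonic anhydrase, by 0.37 and 0.30. *Mdk*, the growth factor midkine, differed by 0.54 but by only 0.099 against double-0 cells, in which its mean of 8.08 TP10k was close to the 8.82 TP10k of *Otx2*+ cells. Of the 12, all but *Mdk*, *Rbpms2*, *Igfbp2* and *Tdgf1* were past the rule in both comparisons. In the strata that also separated wells by *Tfap2c*, *Fgf15* (0.198), *Igfbp2* (0.19), *Car4* (0.16), *Slc2a1* (0.14) and *Lefty1* (0.0995) were under 0.2 like *Dnmt3b*, whereas *Trh* was at 0.57.

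Among the 12 genes with the lowest difference were *Mylpf*, *Slc25a4*, *Dppa3*, *Mt1*, *Fabp3*, *Nup62cl*, *Mt2*, *Ckb*, *Hmces*, *Crip1* and *Zfp42*, from −1.05 to −0.40. Of those named, *Mylpf* and *Zfp42* were also past the rule against double-0 cells. *Mylpf*, a myosin light chain gene of fast muscle, averaged 3.89, 2.81 and 2.91 TP10k in *Otx2*+ cells of plates 3, 4 and 5 and 10.7, 13.4 and 7.81 TP10k in *Otx2*-0 cells. This was the largest difference of any gene compared (−1.05), and it was −0.62 against double-0 cells. *Slc25a4*, the mitochondrial ADP/ATP carrier, averaged 1.86 TP10k in *Otx2*+ cells, 3.15 TP10k in double-0 cells and 8.59 TP10k in cells with *Tfap2c* alone. The metallothionein gene *Mt1* averaged 5.04, 5.89 and 13.4 TP10k in those groups, and *Nup62cl*, an X-linked nucleoporin-like gene, 0.565, 0.730 and 3.87 TP10k. For these genes the *Otx2*+ cells were thus nearer to the double-0 cells than to the cells with *Tfap2c*.

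**Figure D5:**
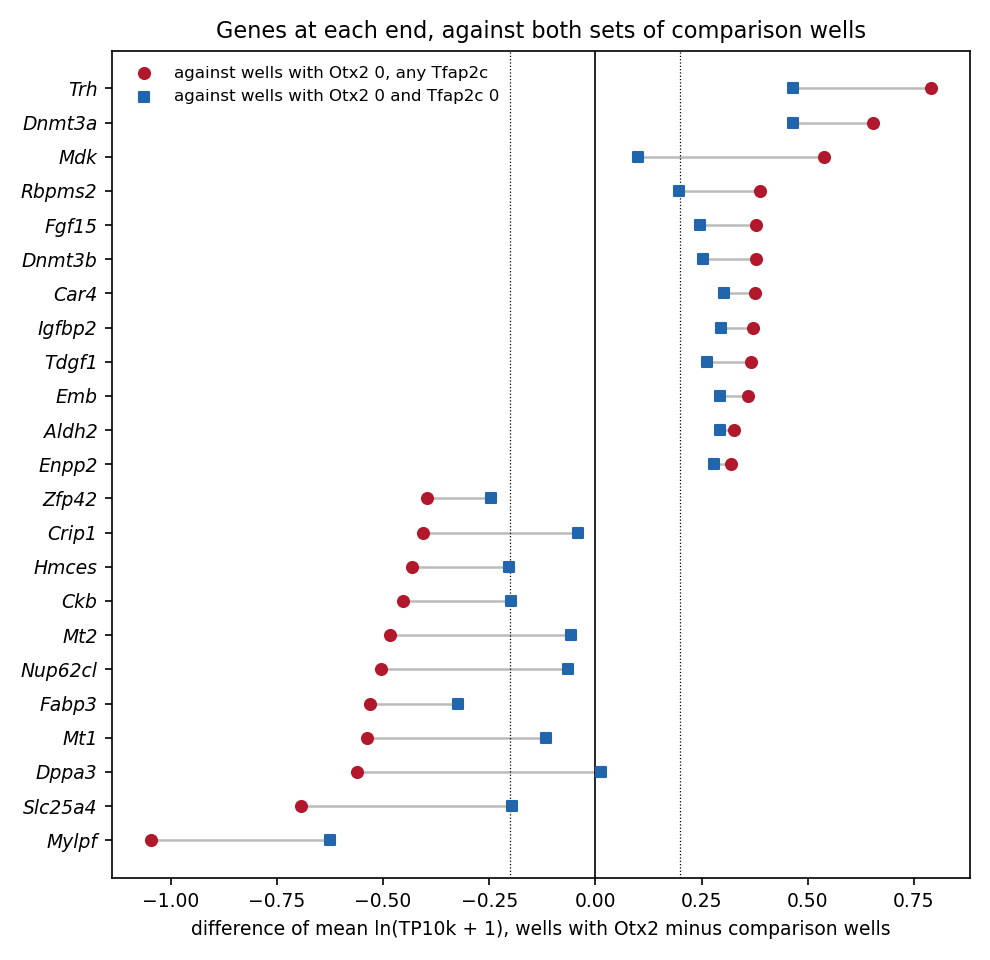
Matched difference of mean ln(TP10k + 1) (horizontal axis) for the genes named at each end, of *Otx2*+ cells against all *Otx2*-0 cells (red circles) and against double-0 cells (blue squares); dotted lines mark the size rule of 0.2. Most higher genes keep a difference right of the rule in both comparisons, whereas *Dppa3* went from −0.56 to 0.013 and *Crip1*, *Mt2* and *Nup62cl* came close to 0.

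Lastly, the core letters that OTX2 is known to bind, TAATCC or GGATTA on the other strand, were looked for in the 250 bases before the start sites of the genes in RefSeq (GRCm38.p6); this search was added after the values had been seen. Of the 72 higher genes 55 matched a promoter, and 3 of the 55 held the letters (5.45%), beside 6.22% of the 5996 compared genes with a promoter and 7.21% of all promoters. The higher genes thus did not hold them more often. Of the 68 lower genes 51 matched, and 7 of the 51 held them (13.7%). None of 21 matched genes that were higher in both comparisons held them. A match is a description of letters and does not show binding. The windows show, with the motif in capitals and 12 bases on each side, the higher genes *Gtf2ird1* (the match nearest to the start), *Limd2* and *Ssu72*, and the lower genes *Nanog* and *Usp48*, which were lower in both comparisons. All are written 5′ to 3′ on the gene's strand.
*Gtf2ird1*, chr5:134456768-134456797, − strand: gcaatcttactgGGATTAcagaacaaagag
*Limd2*, chr11:106160814-106160843, − strand: gcccgaggttacTAATCCcacaaaatctgg
*Ssu72*, chr4:155704571-155704600, + strand: taccgagttctaGGATTAaagaaaagtgtg
*Nanog*, chr6:122707438-122707467, + strand: accctgcaggtgGGATTAactgtgaattca
*Usp48*, chr4:137594055-137594084, + strand: cttccgccagtcGGATTAcatgggctttcg
*Nanog* held the motif 39 to 34 bases before a start site annotated there. The other lower genes with a match were *Cpsf4l*, *Fhl1*, *Klhl13*, *Sms* and *Usp10*; like *Gtf2ird1*, *Limd2* and *Ssu72*, they were named after their values were seen.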

How the data were processed

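Single cells were sorted by index FACS and profiled by Smart-Seq2. Per the study's methods, the authors pseudoaligned reads with kallisto to the mouse Gencode transcriptome of GRCm38 and summed transcripts to genes; bcl2fastq 2.20, kallisto and Seurat are listed in the submitters' processing notes. The deposited table holds TPM values for 20999 genes in 1931 wells after the authors' filters; the TPM listed summed to 484376 to 782286 per *Otx2*+ cell, below a whole library. Read depth per well is not known, and the number of genes above 0 TPM stood in for it. TPM keeps no counts, so no count model was run.

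From the deposited TPM, each well was rescaled to a sum of 10000 (TP10k) and ln(TP10k + 1) was taken. *Otx2*+ cells and comparison cells were split into 4 strata of expressed genes per plate, with the difference of group means weighted by n1 × n0/(n1 + n0) over strata. A gene was past the size rule at a difference of at least 0.2 with the same sign on 3 plates, among genes found in at least 25% of either group; *Otx2* and *Tfap2c* were left out. Since all cells came from 1 pool there is no test. Named were the marker genes, up to 8 genes of each list, genes drawn in the study, and the 12 genes at each end with the same sign on all plates. The members and lists were chosen with earlier results of these data known. The steps were tested on simulated data, with members drawn at random from the same wells and genes changed 4-fold. Of the raised genes 87% were past the size rule, and of the lowered genes 51%. Of the unchanged genes 0.346% were past it. No wells of the Epi-like columns had identical values. Gene positions are from Gencode vM21 (GRCm38). No doublet caller was run, since wells were sorted as single cells. Python 3.11.15, numpy 2.4.6, pandas 2.3.3, scipy 1.17.1 and matplotlib 3.10.9 were used. Alternatives covered the control of expressed genes, the comparison wells, the thresholds, the scale, the filter and the plates. Genes withheld from the text are not reported here.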

Additional observations from a re-analysis of the deposited data

How the results depend on the processing

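No paired analysis was possible because all cells came from 1 pool and no test was made. The counts of genes past the size rule move with the scale. The higher genes, 0.964% of those compared, became 18.1% with ln(TPM + 1), 10.4% with ln(TP10k + 0.1), 6.12% with a size rule of 0.1 and 0.414% when all wells with *Otx2* were compared in strata split by *Tfap2c*, a choice made after seeing the data. The lower genes, 0.91%, became 8.98, 6.397, 4.35 and 0.227% under the same alternatives, 0.477% against cells with *Tfap2c* at 0 and 1.49% with each cell matched to the nearest well. Leaving out a plate gave 1.34 to 1.72% higher and 1.012 to 1.74% lower genes; such a comparison asks for equal signs on 2 plates. The median of the formative and primed list was 0.516 with ln(TPM + 1), 0.252 with ln(TP10k + 0.1), 0.065 without control of expressed genes, 0.064 with the nearest well, 0.068 against cells with *Tfap2c* at 0, 0.074 with a minimum of 4000 genes, 0.049 with a 10% filter, 0.046 with no filter and 0.062 to 0.089 without a plate. That of the naive list was −0.479 and −0.351 under the first 2, −0.063 with a 10% filter, −0.055 with no filter, −0.057 in strata split by *Tfap2c* and −0.116 to −0.087 without a plate. Both medians kept their direction under the 16 alternatives. For the 36 named genes past the rule, 81.1% of the values under the alternatives moved by less than the spread between plates. Another 18.75% moved by more, and *Dppa3* alone changed sign, to 0.013 against cells with *Tfap2c* at 0. The 10% filter, no filter, the size rule of 0.1 and an *Otx2* minimum of 1 TPM could not change a gene's difference. Their values were fixed in advance and count within the 81.1%. The size rule and the *Otx2* minimum could not change the medians of the lists either. The share of *Otx2*+ cells was 34.8 to 41.8% without a plate. Except where a value above shows it, the cause was not tested.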
